A study of Mus musculus with 8 samples.

Results

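The IGF binding proteins, the pappalysins that cleave them and the stanniocalcins that inhibit the pappalysins were examined in islets of mice with conditional lowering of Igf1r in β-cells. The genes were taken by symbol and comprised Igfbp2, Igfbp3, Igfbp4, Igfbp5, Igfbp6, Igfbp7, Pappa, Pappa2, Stc1 and Stc2, which are 10 of the 53012 genes in the count table. Bulk RNA-seq was performed on islets of 8 mice aged 17 months, with 1 library per mouse. The 4 control mice, labelled CTRL and called βIgf1r, were Ins1-CreERT2-/- Igf1r flox/flox and were given corn oil. The 4 mice labelled KD, called βIgf1rKD, were Ins1-CreERT2+/- Igf1r flox/flox and were given tamoxifen at 0.075 mg/g body weight in 5 daily injections, with islet isolation 7 days after the last one. Both groups therefore carried the floxed Igf1r alleles and held males and females that are not marked per mouse. Cre and tamoxifen came together in the same mice, so that in these libraries their effects cannot be told apart from each other or from those of Igf1r. The paper tested tamoxifen alone in separate, non-transgenic mice and found no significant differences in key β-cell genes by qPCR. The methods describe the Cre as driven by a rat insulin promoter, and the islets of each animal were kept apart.

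In tissue fluid most insulin-like growth factor (IGF) is held by IGF binding proteins, which keep it away from its receptor. The pappalysins PAPP-A and PAPP-A2 are secreted metalloproteases that cut particular binding proteins and so release IGF near the cell surface. The stanniocalcins STC1 and STC2 bind the pappalysins and block this cut, so that binding protein, protease and inhibitor together set how much free IGF reaches IGF1R. IGFBP7 is a related secreted protein that binds IGF weakly and is known as a product of vascular cells and as a secreted factor of senescent cells.

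Total counts per mouse lay between 21633925 and 42391106, so that the counting error was small for Igfbp7, with at least 2198 counts per mouse, and large for Igfbp6, with 1 to 31. Markers of β-, α- and δ-cells were detected in every library, and the 12 acinar enzyme genes together took 20640 to 205100 CPM in βIgf1r and 45160 to 250200 CPM in βIgf1rKD mice. CPM are counts scaled to a common library size, here with TMM factors for composition. The targeted gene Igf1r was at 46.85, 47.98, 60.87 and 58.67 CPM in βIgf1r mice M148, M151, M152 and M153 and at 46.93, 50.16, 57.90 and 47.77 CPM in βIgf1rKD mice M145, M146, M149 and M150. These ranges overlapped and the log2 fold change was -0.08 (95% interval -0.33 to 0.17; edgeR, unadjusted p = 0.483), so that the library labels were not checked by this gene. The Igf1r count covers the whole gene and does not isolate the floxed exon. By qPCR, in mice over a wider range of ages, the paper reported lower Igf1r mRNA in islets of this model. By Western blotting, in younger mice, it reported lower IGF1R protein relative to a β-cell protein. Neither measure was made on these libraries, where a lower Igf1r level was not resolved. Across the 15474 genes tested by edgeR's quasi-likelihood test, 0 genes, or 0.0%, passed an adjusted p of 0.05, and 637 passed an unadjusted p of 0.05. DESeq2 called 8 genes and limma-voom 1 gene at an adjusted p under 0.05, none of them among the 10 genes described here.

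Levels of different genes were compared as CPM per kilobase of exon. Igfbp7 was the most abundant of the 10 genes, at 101.7 ± 9.82 CPM per kilobase (SD, n = 8), and its lowest mouse, at 85.1, lay above the highest mouse of every other gene. Pappa2 followed at 26.5 ± 6.42 and Igfbp3 at 25.4 ± 6.85 CPM per kilobase (SD, n = 8), and the ranges of these genes overlapped almost entirely. Igfbp5, at 4.47 ± 0.791, and Igfbp4, at 2.83 ± 0.947 CPM per kilobase (SD, n = 8), formed the next step and overlapped each other, and the lowest mouse of Igfbp4 fell just within the range of Stc2, whereas the range of Igfbp5 lay wholly below that of Igfbp3. Stc2, Igfbp6 and Stc1 had means of 0.619, 0.504 and 0.484 CPM per kilobase and could not be ordered by their ranges. Igfbp2 and Pappa were near the limit of detection, at 0.0280 and 0.0138 CPM per kilobase.

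**Figure D1:**
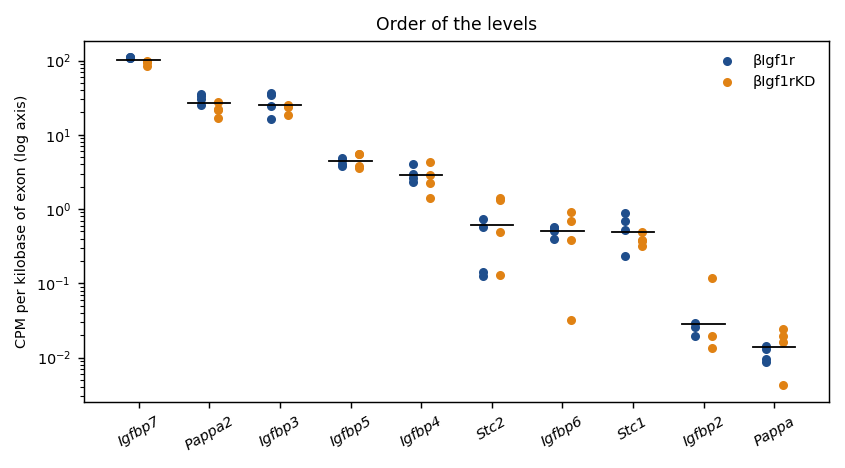
Each point is the level of a gene in 1 mouse, in CPM per kilobase of exon on a log axis, with βIgf1r mice in blue, βIgf1rKD mice in orange and the mean of the 8 mice as a black line. Igfbp7 lies above all other genes, Pappa2 and Igfbp3 share the next place, and the 2 mice with 0 counts of Igfbp2 are not drawn.

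A single gene dominated both the binding proteins and the pappalysins. Igfbp7 made up 75.8% ± 4.39 (SD, n = 4) of the summed per-kilobase level of the 6 binding protein genes in βIgf1r and 75.2% ± 1.87 (SD, n = 4) in βIgf1rKD islets, and Igfbp3 made up 18.8% ± 5.15 and 18.5% ± 2.61. Of the pappalysins nearly all was Pappa2, with Pappa at 0.0198% to 0.0974% of their sum. The stanniocalcins were mixed, with Stc1 between 41.1% and 82.8% of their sum in βIgf1r mice and between 22.4% and 70.6% in βIgf1rKD mice. The shares of Igfbp7 and Igfbp3 differed between the groups by less than the spread between mice, and the share of Stc1 varied widely from mouse to mouse.

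Enough counts for a test were present for 8 of the 10 genes, and Igfbp2 and Pappa did not pass the filter. By log2 fold change 6 of the 8 were lower and 2 higher in βIgf1rKD islets, with a median of -0.19, against a median of 0.01 and a negative sign in 47.7% of all genes tested. At an unadjusted p under 0.05 were 2 genes, Igfbp7 and Pappa2, both lower, where 4.12% of all genes passed in either direction, 1.89% as lower and 2.23% as higher. After Benjamini-Hochberg adjustment over all genes 0 of the 8 passed, with an adjusted p of 0.987 for both Igfbp7 and Pappa2. The groups did not overlap for 1 of the 8, Igfbp7, where 2.22% of all genes tested did not overlap, 1.27% as lower and 0.956% as higher.

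**Figure D2:**
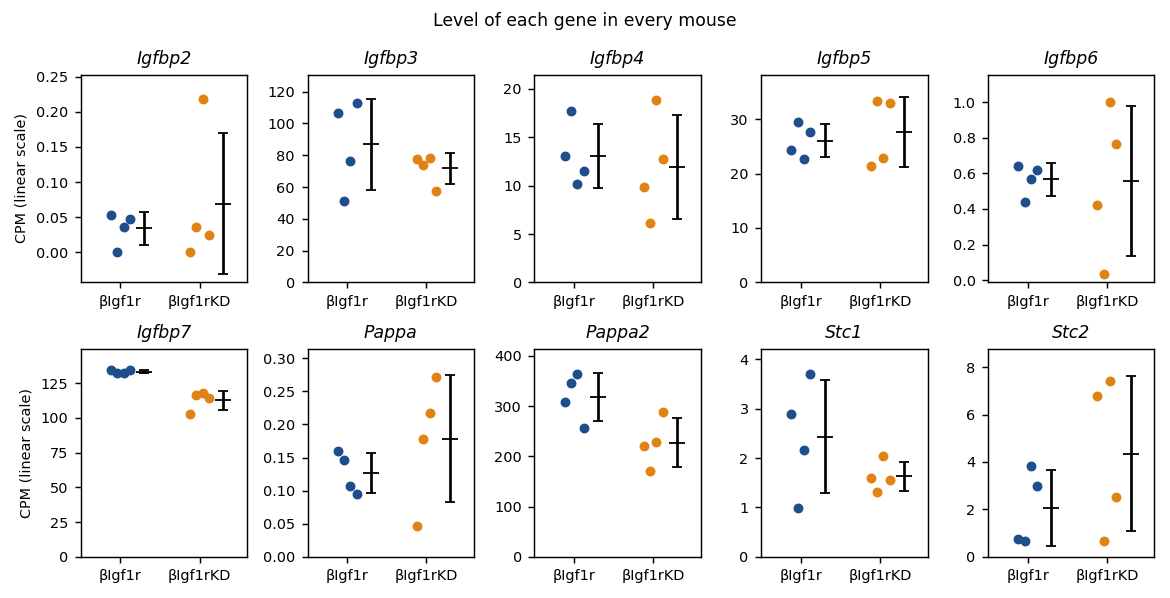
CPM of the 10 genes on linear axes of their own, 1 point per mouse, with βIgf1r in blue and βIgf1rKD in orange and the mean and SD (n = 4) as bars beside the points. The groups are apart for Igfbp7 and overlap for the other 9 genes.

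**Figure D3:**
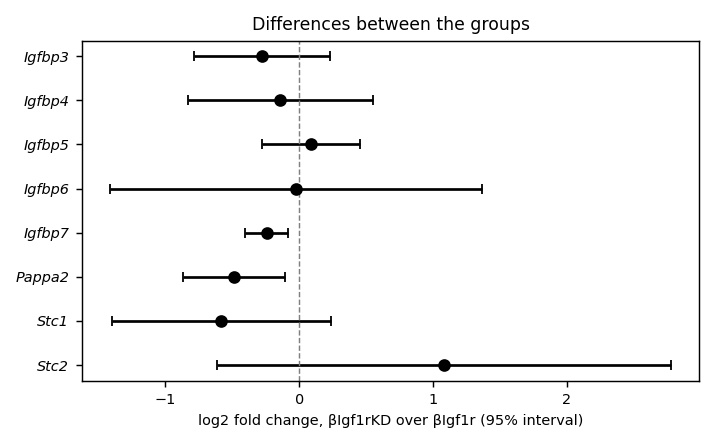
Points are log2 fold changes of βIgf1rKD over βIgf1r from edgeR for the 8 genes tested, and bars are unadjusted 95% intervals. The intervals of Igfbp7 and Pappa2 end below 0, and those of Stc2 and Igfbp6 are the widest.

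Igfbp7 (ENSMUSG00000036256) lies on chr5:77349240-77408041 of GRCm38, on the minus strand. Its level was 134.2, 132.2, 132.2 and 134.4 CPM in βIgf1r mice M148, M151, M152 and M153, and 102.8, 116.1, 117.6 and 114.1 CPM in βIgf1rKD mice M145, M146, M149 and M150. The βIgf1r mice were nearly identical and each lay above every βIgf1rKD mouse. The mean went from 133.2 ± 1.21 to 112.6 ± 6.70 CPM (SD, n = 4 each), which is 0.845 of the control level, with a log2 fold change of -0.24 (95% interval -0.40 to -0.08; edgeR, unadjusted p = 0.00798; exact permutation of log2 CPM, two-sided, p = 0.0286, the smallest that 4 against 4 mice allow). The gene ranked 70 by p among all genes tested. An exon of Igfbp7 overlaps Polr2b on the opposite strand, which encodes a subunit of RNA polymerase II and whose log2 fold change was -0.06, with a standard error of 0.07.

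Markers of endothelial cells were examined beside Igfbp7. Log2 fold changes of the 12 endothelial markers were all negative, between -0.38 and -0.00429 with a median of -0.28. A negative sign was found in 47.7% of all genes tested. Of the 12 markers 6 had an unadjusted p under 0.05, where 1.89% of all genes passed as lower, and 0 passed after adjustment. Their summed level was 500.7 to 628.0 CPM in βIgf1r and 446.0 to 501.3 CPM in βIgf1rKD mice. Relative to this sum, the log2 level of Igfbp7 averaged -2.09 ± 0.13 for the control mice and -2.06 ± 0.06 for the βIgf1rKD mice (SD, n = 4 each). The difference of 0.04 was within the spread between mice (exact permutation, two-sided, p = 0.571). For the log2 sum of the endothelial markers itself the mean difference of βIgf1rKD from βIgf1r was -0.28, and the groups overlapped (exact permutation, two-sided, p = 0.0571). With the endothelial level as a covariate the log2 fold change of Igfbp7 was -0.17 (edgeR, unadjusted p = 0.23). The standard error went from 0.07 to 0.13. Most βIgf1rKD mice lay below all controls in the endothelial level, so that this fit cannot separate that level from the group. In bulk islet RNA fewer cells of a type and less RNA per cell cannot be told apart.

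Over the 8 mice Igfbp7 and the endothelial level had a Pearson's r of 0.859 (exact permutation p = 0.00747, adjusted p = 0.134) and a Spearman's rho of 0.929 (exact permutation p = 0.00223, adjusted p = 0.0804). Without M148 and M153, the mice farthest from the median, r was 0.831, and with the group means removed it was 0.437, so that the relation over all mice included the difference between the groups. The genes of at least 10 CPM whose log2 CPM was most like that of Igfbp7 over the 8 mice were Ankrd44, Clec14a and Pcmt1, with r of 0.961, 0.933 and 0.932. Clec14a is an endothelial surface lectin. All of these genes had a negative log2 fold change, at -0.25, -0.47 and -0.13. They are the best matches among 8664 genes over the same mice, and so are a description and not a test.

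Pappa2 (ENSMUSG00000073530) spans chr1:158711727-158980490 of GRCm38 on the minus strand and encodes the pappalysin that acts mainly on IGFBP3 and IGFBP5. It was at 307.9, 346.4, 364.4 and 255.7 CPM in βIgf1r mice M148, M151, M152 and M153 and at 221.0, 171.0, 228.6 and 288.7 CPM in βIgf1rKD mice M145, M146, M149 and M150. The groups overlapped through βIgf1rKD mouse M150, which lay above βIgf1r mouse M153. The mean was 318.6 ± 48.1 CPM in βIgf1r and 227.3 ± 48.2 CPM in βIgf1rKD islets (SD, n = 4 each), or 0.713 of the control level by the fitted fold change. The log2 fold change was -0.49 (95% interval -0.87 to -0.10; edgeR, unadjusted p = 0.0178; exact permutation of log2 CPM, two-sided, p = 0.0571). In 7 of the 8 mice the estimated count of Pappa2 was not a whole number, which can arise when reads are divided between transcripts of different genes. The gene 1600012P17Rik, which overlaps exons of Pappa2 on the same strand, had 0 counts in all 8 mice.

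Pappa2 was also compared with β-cell markers within each library, a measure chosen after the data were seen. Relative to the mean log2 CPM of 8 β-cell markers other than Ins1 and Ins2, Pappa2 averaged -1.22 ± 0.29 for the control mice and -1.73 ± 0.42 for the βIgf1rKD mice (SD, n = 4 each). The βIgf1rKD mean was lower, with a difference of -0.51 (exact permutation, two-sided, p = 0.0571). The difference in log2 CPM of Pappa2 itself was -0.50. The correlation of Pappa2 with the summed level of all 10 β-cell markers, Ins1 and Ins2 included, was 0.0205 over the 8 mice and -0.663 with the group means removed. That sum was mostly insulin and Iapp RNA, with means of 112700 CPM for Ins2, 31400 for Ins1 and 16170 for Iapp. Each of the other β-cell markers averaged 1321 CPM or less and so hardly entered this correlation. The highest correlation of Pappa2 with any of the 9 marker lists was 0.653, with Schwann cell markers (exact permutation p = 0.0852, adjusted p = 0.557), which dropped to 0.0922 without M146 and M149. The genes of at least 10 CPM most like Pappa2 over the 8 mice were Ache (acetylcholinesterase), Ass1 (argininosuccinate synthase) and Usp40 (a deubiquitinase), with Pearson's r of 0.918, 0.913 and 0.900. With the endothelial level as a covariate the log2 fold change was -0.61, with an unadjusted p of 0.0801 (edgeR).

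Since Igfbp7 and Pappa2 were the genes past an unadjusted p of 0.05, the 250 bases before their RefSeq start sites are shown, from chr5:77408046-77408295 and chr1:158958176-158958425 of GRCm38.p6, both on the minus strand. Capitals mark GGGCGG, the GC box bound by SP1, or its reverse complement CCGCCC.
Igfbp7: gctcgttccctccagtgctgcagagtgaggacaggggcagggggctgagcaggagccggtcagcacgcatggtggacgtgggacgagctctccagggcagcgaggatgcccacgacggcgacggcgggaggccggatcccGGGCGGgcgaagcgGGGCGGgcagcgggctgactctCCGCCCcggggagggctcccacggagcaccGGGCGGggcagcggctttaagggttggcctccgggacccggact
Pappa2: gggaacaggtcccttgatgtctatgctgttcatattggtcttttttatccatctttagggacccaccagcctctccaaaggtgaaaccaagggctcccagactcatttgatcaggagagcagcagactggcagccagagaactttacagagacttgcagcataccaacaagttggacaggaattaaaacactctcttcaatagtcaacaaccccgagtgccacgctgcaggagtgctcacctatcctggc
The Igfbp7 window held 4 GC boxes, 26 CG dinucleotides and 74.0% G and C, whereas the Pappa2 window held 0 GC boxes, 2 CG dinucleotides and 49.2% G and C. Of all 32851 promoter windows 32.7% held a GC box on either strand, with a median of 6 CG dinucleotides and 52.4% G and C. The start used for Pappa2 lies inside the longer GENCODE gene, so that other starts are possible. The motif GTAAACA, which forkhead box O factors downstream of IGF1R bind, or its reverse complement TGTTTAC was in 0 of the 9 windows of the 8 genes with a RefSeq promoter, and in 3.17% of all windows. TATAAA or its reverse complement TTTATA was in 2 of the 9 windows, those of Igfbp4 and Igfbp6, and in 12.4% of all windows.

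Igfbp3, the main carrier of IGF in blood, lies on chr11:7206086-7213923 of GRCm38 on the minus strand. It was at 106.9, 51.3, 76.7 and 113.2 CPM in βIgf1r mice M148, M151, M152 and M153. In βIgf1rKD mice M145, M146, M149 and M150 it was at 77.4, 74.2, 78.6 and 57.3 CPM, all inside the range of the controls. The log2 fold change was -0.28 (95% interval -0.78 to 0.23; edgeR, unadjusted p = 0.25), and it depended on single control mice. Without M151, the lowest control, it was -0.46 (unadjusted p = 0.0179), without M153 it was -0.13 (unadjusted p = 0.583), and without M148 it was -0.16 (unadjusted p = 0.518). With Xist as a covariate it was -0.040 (unadjusted p = 0.861). Igfbp3 had its highest correlation with the endothelial level, with r = 0.662 (exact permutation p = 0.0844, adjusted p = 0.557), but r was 0.0943 without M148 and M153, so that the relation rested on these mice, although it was 0.779 with the group means removed. With the endothelial level as a covariate the log2 fold change was 0.59 (edgeR, unadjusted p = 0.0974).

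Igfbp5, a binding protein that attaches to matrix, is a neighbour of Igfbp2 on chromosome 1 of GRCm38. Igfbp2 spans 72824503 to 72852474 on the plus strand and Igfbp5 spans 72857932 to 72874884 on the minus strand, so that their ends face each other across 5457 bases. The neighbours differed widely in level. Igfbp5 was at 24.4, 29.5, 22.7 and 27.6 CPM in βIgf1r mice M148, M151, M152 and M153 and at 21.3, 33.4, 22.9 and 33.0 CPM in βIgf1rKD mice M145, M146, M149 and M150. The βIgf1rKD mice fell on both sides of the controls, and the log2 fold change was 0.09 (95% interval -0.28 to 0.45; edgeR, unadjusted p = 0.603). It was the steadiest binding protein gene after Igfbp7, with 1.57 times as much in the highest mouse as in the lowest. Igfbp2 had 0 to 5 counts per mouse and 11 in all, and the 0 counts of M151 and M145 allow up to 0.109 and 0.14 CPM, counting error only.

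Igfbp4, the main substrate of PAPP-A, lies on chr11:99041244-99054392 of GRCm38. It was at 13.0, 17.7, 10.2 and 11.5 CPM in βIgf1r mice M148, M151, M152 and M153 and at 9.83, 6.14, 18.9 and 12.8 CPM in βIgf1rKD mice M145, M146, M149 and M150. Both the highest and the lowest mouse were βIgf1rKD, and the log2 fold change was -0.14 (95% interval -0.83 to 0.55; edgeR, unadjusted p = 0.659). The counts of Igfbp4 were fractional in all 8 mice. Igfbp6, a binding protein with preference for IGF2, on chr15:102144362-102149511, had 24, 12, 16 and 13 counts in βIgf1r mice M148, M151, M152 and M153 and 9, 1, 23 and 31 counts in βIgf1rKD mice M145, M146, M149 and M150. Its log2 fold change was -0.02 (95% interval -1.41 to 1.37; edgeR, unadjusted p = 0.971), so that the interval included a change of 2-fold in either direction.

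Igfbp4 and Igfbp6 had their highest correlations with the markers of fibroblasts and pericytes. Pearson's r with the summed level of the 12 markers was 0.913 for Igfbp4 (exact permutation p = 0.00365, adjusted p = 0.0875) and 0.877 for Igfbp6 (exact permutation p = 0.00293, adjusted p = 0.0875), with a rho of 0.929 and 0.857 (exact permutation p = 0.00223 and p = 0.0107, adjusted p = 0.0804 and 0.193). With the group means removed r was 0.917 and 0.881. M146, with a marker sum of 131.8 CPM, was lowest and M149, with 399.3 CPM, was highest in all 3 measures, and without these mice r was 0.679 for Igfbp4 and 0.635 for Igfbp6. Between the groups the marker sum overlapped, at 224.1 to 249.1 CPM in βIgf1r and 131.8 to 399.3 CPM in βIgf1rKD mice. Of the 12 markers 6 were higher and 6 lower. Rgs5, a pericyte gene, was the 1 marker with an unadjusted p under 0.05, where 1.89% of all genes passed as lower. Its log2 fold change was -0.31, its groups overlapped, and 0 of the 12 passed after adjustment.

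**Figure D4:**
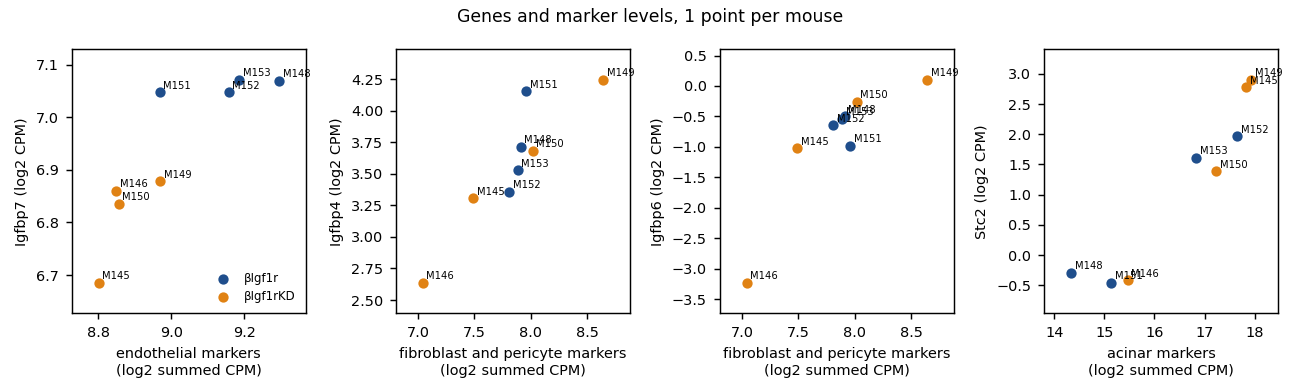
Each panel sets the log2 CPM of a gene against the log2 of the summed CPM of a marker list, with 1 labelled point per mouse, βIgf1r in blue and βIgf1rKD in orange. Pearson's r is 0.859 for Igfbp7 with endothelial, 0.913 for Igfbp4 and 0.877 for Igfbp6 with fibroblast and pericyte, and 0.948 for Stc2 with acinar markers, none with an adjusted p under 0.05, and M146 and M149 form the ends of both fibroblast and pericyte panels.

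Stc2, an inhibitor of both pappalysins, lies on chr11:31357307-31370074 of GRCm38. It was at 0.745, 0.655, 3.85 and 2.99 CPM in βIgf1r mice M148, M151, M152 and M153 and at 6.78, 0.678, 7.40 and 2.54 CPM in βIgf1rKD mice M145, M146, M149 and M150. Low and high mice were present in both groups, with an 11.3-fold span over the 8 mice. The log2 fold change was 1.08 (95% interval -0.62 to 2.78; edgeR, unadjusted p = 0.185; exact permutation of log2 CPM, two-sided, p = 0.371).

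The highest of all correlations was that of Stc2 with the acinar content of the libraries. With the summed level of the 12 acinar markers Pearson's r was 0.948 (exact permutation p = 0.000967, adjusted p = 0.0696) and Spearman's rho was 0.905 (exact permutation p = 0.00456, adjusted p = 0.11). Without M148 and M151, the mice with the least acinar RNA, r was 0.965, and with the group means removed it was 0.941. The 3 mice with the lowest acinar sums, M148 at 20640, M151 at 35880 and M146 at 45160 CPM, were also the 3 mice with the least Stc2. Log2 fold changes of the 12 acinar markers were all positive, with a median of 0.84, and 0 had an unadjusted p under 0.05 (edgeR). Their log2 sum was higher by 1.13 in βIgf1rKD mice, but the groups overlapped (exact permutation, two-sided, p = 0.229). With the acinar level as a covariate the log2 fold change of Stc2 was -0.093 (edgeR, unadjusted p = 0.808).

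Stc1, the other stanniocalcin, lies on chr14:69029238-69041804 of GRCm38. It was at 2.90, 0.982, 2.17 and 3.70 CPM in βIgf1r mice M148, M151, M152 and M153 and at 1.59, 1.32, 2.05 and 1.55 CPM in βIgf1rKD mice M145, M146, M149 and M150. Of the βIgf1r mice 3 lay above all βIgf1rKD mice and M151 lay below them. The log2 fold change was -0.58 (95% interval -1.40 to 0.23; edgeR, unadjusted p = 0.143), and it depended on single mice. Without M151 it was -0.84 (unadjusted p = 0.00911), without M153, the highest control, it was -0.32 (unadjusted p = 0.4), and with Xist as a covariate it was -0.13 (unadjusted p = 0.706). Stc1 had an r of 0.108 with the acinar level and its highest correlation with the endothelial level, with r = 0.754 (exact permutation p = 0.033, adjusted p = 0.396) and rho = 0.762 (exact permutation p = 0.0368, adjusted p = 0.441). Without M148 and M153 r was 0.429, and with the group means removed it was 0.842. With the endothelial level as a covariate the log2 fold change was 0.85 (edgeR, unadjusted p = 0.143). Pappa, on chr4:65124174-65357509, had 6, 4, 3 and 2 counts in βIgf1r mice M148, M151, M152 and M153 and 1, 5, 5 and 11 in βIgf1rKD mice M145, M146, M149 and M150, too few for a test.

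In all, 72 relations between the 8 genes and 9 marker lists were computed, and 0 had an adjusted p under 0.05. The other marker lists were macrophage, duct, Schwann, β-, α- and δ-cell genes. The α- and δ-cell sums were mostly Gcg and Sst, at means of 20130 and 2383 CPM. Igfbp5 had its largest correlation, 0.544, with δ-cell markers and its most negative, -0.541, with duct markers. Of the macrophage markers 11 of 12 had a positive log2 fold change. C1qb, C1qc and Itgam had an unadjusted p under 0.05, where 2.23% of all genes tested passed as higher, and 0 passed after adjustment. The macrophage marker sum overlapped between the groups, at 124.1 to 178.5 CPM in βIgf1r and 142.3 to 309.8 CPM in βIgf1rKD mice. Its log2 did not differ clearly (exact permutation, two-sided, p = 0.229), and M149 was the highest mouse. The marker with the greatest change in each list was Tek (-0.38) for endothelial cells, Col1a1 (0.77) for fibroblasts and pericytes, Try4 (1.08) for acinar cells, Muc1 (1.41) for duct cells, Lyz2 (1.19) for macrophages, Ngfr (-0.77) for Schwann cells, Ins1 (-0.92) for β-cells, Gc (-0.22) for α-cells and Sst (-0.25) for δ-cells, each as a log2 fold change. Of these Tek and Ins1 had an unadjusted p under 0.05 (edgeR, 0.012 and 0.0204). Each of these 9 markers is the extreme of its list. Ins1 was at 41090 ± 7908 CPM in βIgf1r and 21700 ± 4567 CPM in βIgf1rKD islets (SD, n = 4 each). Its groups did not overlap, where 1.27% of all genes tested did not overlap as lower. The groups also differed in the Ins1-CreERT2 genotype, and the cause of the Ins1 difference was not tested. Of the β-cell markers 6 were lower and 4 higher, with a median log2 fold change of -0.07. The α-cell markers were 3 lower and 3 higher, with a median of 0.0007. Of the markers tested, δ-cell genes were 3 lower and 1 higher, duct genes 1 lower and 5 higher, and Schwann genes 7 lower and 0 higher. The part of any of these cell types in the differences above was not tested, and the fits with marker levels as covariates do not measure it.

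**Figure D5:**
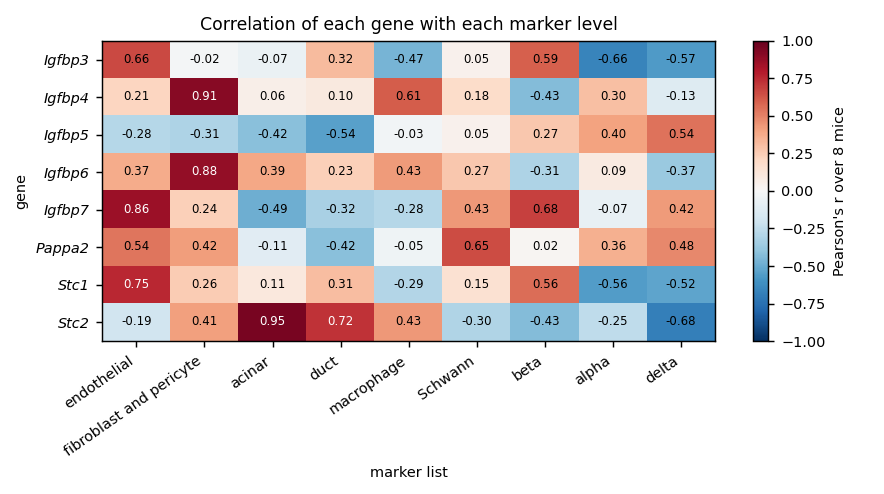
Colours and numbers give Pearson's r over the 8 mice between the log2 CPM of each gene (rows) and the log2 summed CPM of each marker list (columns). The highest values are 0.95 for Stc2 with acinar, 0.91 for Igfbp4 and 0.88 for Igfbp6 with fibroblast and pericyte, and 0.86 for Igfbp7 with endothelial markers.

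The rest of the IGF axis was read from 3 lists. Of 11 genes for IGF ligands, receptors and carriers 9 could be tested, 4 lower and 5 higher by log2 fold change, with 0 past an unadjusted p of 0.05 (edgeR), and the median was 0.01. The gene of this list with the most CPM was Insrr, an insulin receptor-related receptor, at 258.7 ± 35.7 CPM in βIgf1r and 259.9 ± 37.5 CPM in βIgf1rKD islets (SD, n = 4 each). Igfbp1, a binding protein made mainly by liver, had 0 counts among 226261362 in the 8 mice, which allows up to 0.0133 CPM. Igfals, which joins IGFBP3 and IGF in a ternary complex, was at 49.6 ± 0.258 CPM in βIgf1r and 59.2 ± 11.6 CPM in βIgf1rKD islets (SD, n = 4 each), a log2 fold change of 0.25 (95% interval -0.03 to 0.54).

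Of 13 other proteases that can cut IGF binding proteins 10 were tested, 5 lower and 5 higher, with a median log2 fold change of -0.00155 and 0 at an unadjusted p under 0.05. Ctsd, the lysosomal protease cathepsin D, had the most CPM of this list, at 289.5 ± 12.5 CPM in βIgf1r and 312.9 ± 54.8 CPM in βIgf1rKD islets (SD, n = 4 each). Of 9 genes for other secreted proteins with an IGF-binding domain 7 were tested, 5 lower and 2 higher, with a median log2 fold change of -0.19 and 0 at an unadjusted p under 0.05. Esm1, an endothelial proteoglycan and the gene of this list with the most CPM, was at 82.0 ± 9.24 CPM in βIgf1r and 71.8 ± 6.06 CPM in βIgf1rKD islets (SD, n = 4 each), a log2 fold change of -0.19 (95% interval -0.41 to 0.03).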

How the data were processed

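Islet RNA of 4 βIgf1r and 4 βIgf1rKD mice was sequenced from stranded mRNA libraries. The authors deposited estimated counts per gene and mouse, not scaled between mice. The submitters' notes name fastp, kallisto and GRCm38, and the annotation release and the counting by strand are not given in the sources used here. Groups and mouse numbers came from the sample titles. Of 53012 identifiers 51906 matched a symbol. Coordinates and exon lengths are from GENCODE M21 on GRCm38, joined by identifier.

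Estimated counts were rounded. The default filter of edgeR 4.0.16 (at least 10 counts in 4 mice after scaling, total of at least 15) kept 15474 genes, which were scaled by TMM and compared by quasi-likelihood tests in R 4.3.3 with Benjamini-Hochberg adjustment over all of them. The intervals are 95% and unadjusted. Log2 CPM used a prior count of 2. Permutation tests were exact and two-sided, over 70 assignments of mice or 40320 pairings, and the p-values of the 72 correlations were adjusted together. Alternatives were RLE factors, DESeq2 1.42.0, limma-voom (limma 3.58.1), other filters, marker levels or Xist as covariates and each mouse left out. Scripts were tested on simulated data.

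The genes and lists were chosen with earlier results of these data known. Named beside the 10 genes are Igf1r, the gene with the most CPM and any gene at an unadjusted p under 0.05 in each IGF list, the gene with the greatest log2 fold change in each marker list, and the 3 genes of at least 10 CPM most like Igfbp7 and Pappa2. Igfals, Igfbp1, Polr2b, 1600012P17Rik, Rgs5, C1qb, C1qc, Itgam, Ins2, Iapp and Gcg were named after their values were seen. Sequences are from RefSeq on GRCm38.p6, with motifs searched on both strands and overlapping matches counted.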

Additional observations from a re-analysis of the deposited data

How the results depend on the processing

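RLE factors, DESeq2, limma-voom, the other filters, the acinar level, Xist, and the fibroblast and pericyte level left Igfbp7 and Pappa2 lower at an unadjusted p under 0.05, as did leaving out any mouse (-0.26 to -0.20 and -0.62 to -0.37). The number of the 10 genes at an unadjusted p under 0.05 was 2, but 0 with the endothelial level, alone or with the acinar level (the pair added after seeing the data), and 2 to 4 without a mouse, the highest without M151, when Igfbp3 and Stc1 joined. With Xist it was 3, Stc2 joining at 1.78. With the endothelial level Igfbp7 was at -0.17 and Pappa2 at -0.61, and with both levels at -0.16 and -0.70. The standard errors went from 0.07 to 0.13 for Igfbp7 and from 0.17 to 0.31 for Pappa2 with the endothelial level, and calls over all genes went from 637 to 768. With the endothelial level, log2 fold changes turned to 0.59 for Igfbp3, -0.15 for Igfbp5, 0.91 for Igfbp6, 0.85 for Stc1 and 0.072 for Igf1r, and with both levels to 0.56, -0.027, 0.41 and 0.69 for the first 4 of these. With Xist they turned to -0.023 for Igfbp5, 0.25 for Igfbp6 and 0.023 for Igf1r, and with the acinar level to -0.093 for Stc2. Stc2 was at 1.97 with the endothelial level. Without a mouse, Igfbp3 ranged from -0.46 to -0.13, Stc1 from -0.84 to -0.32, Stc2 from 0.69 (without M149) to 1.599 (without M152), Igfbp4 from -0.45 to 0.076, Igfbp5 from -0.015 to 0.19, Igfbp6 from -0.43 to 0.37 and Igf1r from -0.15 to -0.01. The cause of these changes was not tested. Igfbp7 relative to Pecam1 alone differed by -0.00225, and without a mouse its difference relative to the endothelial sum ranged from -0.00609 to 0.10. Pappa2 relative to β-cell markers ranged from -0.62 to -0.30.

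Over all genes, those at an unadjusted p under 0.05 numbered 1098 without a filter, 385 with the acinar level, 1143 with Xist and 383 to 1114 without a mouse, with 383 without M148, 402 without M153, 960 without M146 and 1114 without M152. At an adjusted p they numbered 8 by DESeq2 and 1 by limma-voom. The list of ligands, receptors and carriers had 1 gene at an unadjusted p under 0.05 with the acinar level, with the fibroblast and pericyte level, with Xist and with the acinar and endothelial levels. The proteases had 1 with the endothelial level and with Xist, and the other domain proteins had 1 without a filter. Each list had 0 to 1 without a mouse. No paired analysis was possible because the labels give no litter, pair or batch that links mice across the groups. Counts were too few for a test of Igfbp2 and Pappa. The standard error of Igfbp6 was 0.62, and 0.35 without M146, and that of Stc2 was 0.76, and 0.37 with the acinar level.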
